A study of Rattus norvegicus with 2 samples.

Results

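The visual cycle retinoid genes examined here are 10 rat genes whose proteins make, carry or recycle the retinal that opsins use. They were chosen by name, as the rows of a gene expression table whose symbol is *Rpe65*, *Lrat*, *Rgr*, *Rlbp1*, *Rdh5*, *Rdh8*, *Rdh10*, *Rdh12*, *Rbp3* or *Abca4*, and each symbol was found in 1 of the 32662 rows. Grouped by where their step takes place, 6 belong to the pigment epithelium and Müller glia (*Rpe65*, *Lrat*, *Rgr*, *Rlbp1*, *Rdh5* and *Rdh10*) and 4 to photoreceptors (*Rdh8*, *Rdh12*, *Abca4* and *Rbp3*). The data are 2 RNA-seq libraries of total RNA with rRNA removed, from retinas of female Long-Evans rats, a pigmented strain, aged 2 months. CTRL is a retina after a sham procedure, and IR12 is a retina that went through ischemia and reperfusion and was taken 12 hours after reperfusion. Each condition has 1 retina and 1 library, so no difference below has a replicate check, and the injury and other differences between the 2 retinas cannot be told apart.

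Light turns the retinal bound to the opsins of photoreceptors from its cis form into the all-trans form, and the visual cycle turns it back. Photoreceptors reduce all-trans retinal to retinol, which crosses to the pigment epithelium, is stored there as retinyl esters, is isomerised and oxidised, and returns as the cis form of retinal. Müller glia, the radial glia of the retina, hold carriers and enzymes of the same pathway and take part in the supply of retinoid to cones.

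Expression is given as FPKM, which divides reads by transcript length and by the reads of the library, so that levels can be compared between genes of a library. A gene counted as tested when 1 or both libraries had it at an FPKM of 1 or more, which held for 13599 genes. All 10 visual cycle genes passed, but *Rdh5* passed only through IR12, so its direction is partly set by this filter. Differences are log2 ratios of FPKM + 1, IR12 over CTRL, and for genes of low FPKM this scale gives less than the full ratio. Over all tested genes the median log2 ratio was 0.02. When both libraries are rescaled to the same sum (the TPM scale), this median is 0.59, because small non-coding RNAs hold 67.9% of the summed FPKM in CTRL and 46.1% in IR12. With the same sum set over the other genes alone it is -0.06. Where the pseudocount has no weight, log2 ratios are 0.65 higher on the TPM scale than as deposited, so many of the small negative ratios below are above 0 there. Values on this scale are given for some of the genes and lists. FPKM holds no read counts, but values at a locus length of 939 bp, shared by 186 genes, moved in steps, read here as the worth of 1 read. The step was 0.0881 FPKM in CTRL and 0.0516 FPKM in IR12, and all 6 values above 0 in CTRL and all 17 in IR12 were whole multiples of it within 1%. These steps need not follow the read totals of the libraries, since FPKM can hold other scaling.

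At least 2-fold higher in IR12 were 2 of the 10 visual cycle genes, *Rdh10* and *Rdh8*, beside 6.56% of all tested genes. At least 2-fold lower were another 2, *Rlbp1* and *Rpe65*, beside 6.12% of all tested genes. At 1.5-fold the counts were 3 higher, with *Rgr* added, and 3 lower, with *Rbp3* added, beside 14.8% and 13.7% of all tested genes. On the TPM scale 2817 of the 13599 tested genes were at least 2-fold higher and 436 at least 2-fold lower. Counts for the lists below are to be read beside these shares. The summed FPKM of the 10 genes was 765 in CTRL and 695 in IR12. In both libraries *Abca4* was the most abundant of them and *Rdh5* the least. Of the 45 pairs of these genes, 5 changed their order between the libraries, and each of these pairs holds *Rlbp1* or *Rdh10*. *Rlbp1* stood at order 3 by FPKM in CTRL and was passed by *Rdh10*, *Rdh12* and *Rdh8* in IR12, while *Rdh10* moved from order 6 to order 3. The dot plot of levels shows the 10 genes in both libraries.

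**Figure D1:**
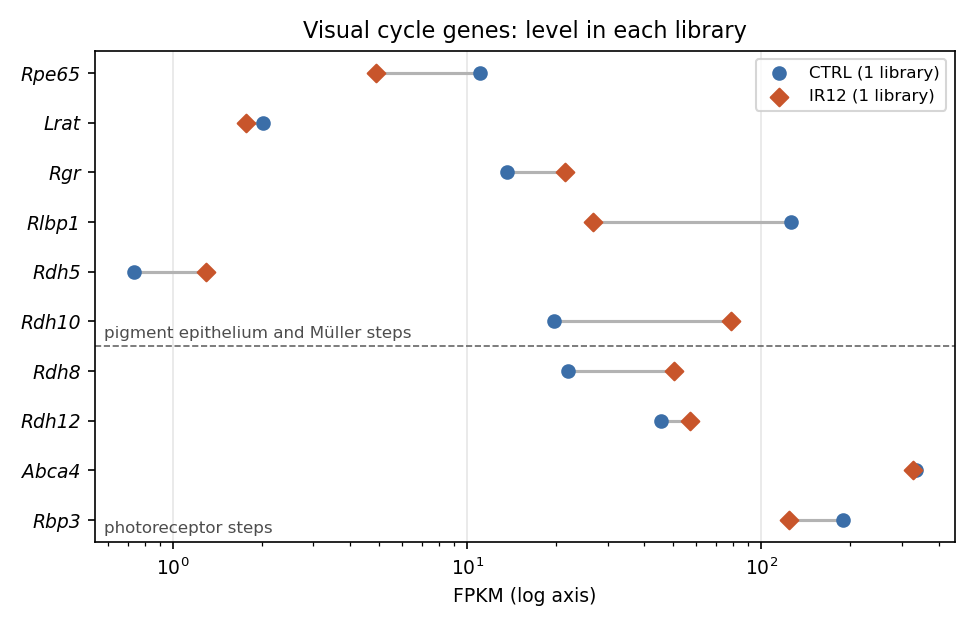
FPKM (log axis) of the 10 visual cycle genes in CTRL (circles) and IR12 (diamonds), 1 library each, with the 6 pigment epithelium and Müller genes above the dashed line and the 4 photoreceptor genes below it. *Rlbp1* moves from 126 to 26.8 and *Rdh10* from 19.8 to 78.5, while the points of *Abca4* (334 and 328) lie on each other.

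Promoter sequence is shown because CRX and OTX2, the homeodomain factors of photoreceptors and, for OTX2, of the pigment epithelium, have known targets on both sides of the pathway. RefSeq promoters on GRCr8, from 250 bases before to 50 bases after the gene's start, were found for 8 of the 10 genes, with no entry for *Rdh8* and *Rdh10*. The core TAATCC, searched on both strands (GGATTA on the other), occurs in the windows of *Rpe65*, *Rgr*, *Rbp3* and *Abca4* and in 7.17% of the 33469 promoters of the same length. Below, 120 bases before the start are printed 5′ to 3′ as transcribed for 4 genes, and the stretch from 230 to 111 bases before the start for *Rgr*, with the core in capitals. *Rlbp1* is added as the gene with the lowest log2 ratio, and its window lacks these letters.
Rpe65 (chr2:251425248-251425367, plus strand): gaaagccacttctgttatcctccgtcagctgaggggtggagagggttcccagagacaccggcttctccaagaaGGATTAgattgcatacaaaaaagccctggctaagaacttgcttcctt
Rgr (chr16:12836597-12836716, minus strand): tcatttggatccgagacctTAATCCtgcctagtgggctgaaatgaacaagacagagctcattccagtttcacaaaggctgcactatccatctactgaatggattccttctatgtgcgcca
Rlbp1 (chr1:142731622-142731741, minus strand): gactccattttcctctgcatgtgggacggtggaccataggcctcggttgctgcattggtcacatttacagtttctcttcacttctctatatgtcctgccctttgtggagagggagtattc
Rbp3 (chr16:9273667-9273786, plus strand): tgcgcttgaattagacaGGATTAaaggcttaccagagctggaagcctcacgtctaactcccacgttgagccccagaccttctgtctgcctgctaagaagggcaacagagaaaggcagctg
Abca4 (chr2:212849365-212849484, plus strand): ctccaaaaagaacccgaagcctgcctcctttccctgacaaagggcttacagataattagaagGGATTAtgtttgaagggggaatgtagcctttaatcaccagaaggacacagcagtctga

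The core begins 47 bases before the start in *Rpe65*, 58 in *Abca4*, 103 in *Rbp3* and 211 in *Rgr*. These 4 genes do not share a direction between the libraries, with log2 ratios of -1.04 for *Rpe65*, -0.03 for *Abca4*, -0.61 for *Rbp3* and 0.62 for *Rgr*. Of 3 other cores searched on both strands, TAATTA, bound by LHX and RAX homeodomains, occurs only in the window of *Abca4*, 68 bases before the start, and in 5.36% of all promoters. ACAAAG, a SOX core, occurs in the windows of *Rlbp1*, *Rgr*, *Rdh12* and *Abca4* and in 18.8% of all promoters, 21 bases before the start in *Rlbp1*. ACAATG, another SOX core, is in none of the 8 windows and in 13.2% of all promoters. A match here describes letters and not a bound site.

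In the pigment epithelium the cycle runs through *Lrat*, *Rpe65* and *Rdh5*. *Rpe65*, the isomerase that turns retinyl esters into the cis form of retinol (ENSRNOG00000009582, chr2:266141581-266169197 on rn6), had 11.1 FPKM in CTRL and 4.88 in IR12. CTRL was thus the higher library, by 2.27 times in FPKM and with a log2 ratio of -1.04, and 5.74% of all tested genes had a lower ratio. *Rpe65* is no longer past 2-fold on the TPM scale, where its log2 ratio is -0.46, although that is 1.06 below the median of all genes on that scale. *Lrat*, which makes the retinyl esters that *Rpe65* uses (ENSRNOG00000025608, chr2:181896305-181905300 on rn6), had 2.01 FPKM in CTRL and 1.77 in IR12. Its log2 ratio of -0.12 becomes 0.29 on the TPM scale, so no direction can be given. *Rdh5*, the dehydrogenase that oxidises the cis form of retinol (ENSRNOG00000053850, chr7:3335742-3342491 on rn6), had 0.739 FPKM in CTRL and 1.30 in IR12 (log2 ratio 0.40). These levels are low: on a locus of 939 bp without introns they would be 8.39 reads in CTRL and 25.2 in IR12 for *Rdh5*, and 22.9 and 34.4 for *Lrat*. *Rdh5* also lies between neighbours that are far more abundant. On rn6 it is 159 bp from *Cd63*, which had 64.9 in CTRL and 573 in IR12, and 138 bp from *Bloc1s1*, with 11.5 and 22.5. The part of reads from these genes in the values of *Rdh5* was not tested.

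The pigment epithelium is a separate layer that can stay partly attached to a dissected retina, and its marker list (with the pigment genes, which choroid melanocytes also use) is set beside the genes of this layer. All 17 markers were found, 11 of them were tested and none was at 0. Their summed FPKM was 170 in CTRL and 148 in IR12, with *Ttr* as the most abundant at 61.8 and 87.4. As deposited *Rrh* and *Serpinf1* were at least 2-fold lower in IR12, none was at least 2-fold higher, and the median log2 ratio was 0.01. On the TPM scale 3 of the 11 were at least 2-fold higher and 2 lower, beside 2817 and 436 of the 13599 tested genes. *Serpinf1* passed the filter only through CTRL, so its direction is partly set by it. The defining marker *Best1*, a chloride channel, had 0.242 in CTRL and 0.124 in IR12, and *Tyr*, the first enzyme of melanin synthesis, had 0.392 and 0.162. *Tyrp1*, another melanin enzyme, had 12.4 and 10.2, and *Dct* had 17.0 and 24.0. As a share of the summed FPKM of this list, *Rpe65* was 6.51% in CTRL and 3.30% in IR12. *Lrat* was at 1.18% and 1.20%, and *Rdh5* at 0.434% and 0.876%. No scaling of a library can move these shares, but they rest on the abundant markers of the list. Without *Ttr* the share of *Rpe65* was 10.2% and 8.05%, and without *Rrh* it was 9.97% and 3.51%. That of *Lrat* was 1.86% and 2.92% without *Ttr* and 1.81% and 1.27% without *Rrh*. That of *Rdh5* was 0.682% and 2.14% without *Ttr* and 0.665% and 0.932% without *Rrh*. These alternatives, and those for the shares of other lists below, were chosen after seeing the data. The amount of attached pigment epithelium was not measured in another way, and its part in these values was not tested. In bulk samples such as these, fewer cells of a type and less RNA per cell cannot be told apart.

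*Rlbp1*, *Rgr* and *Rdh10* are used by the pigment epithelium and by Müller glia, and they differed in direction. *Rlbp1* encodes CRALBP, the carrier that binds the cis forms of retinol and retinal (ENSRNOG00000016897, chr1:141097695-141111400 on rn6), and had 126 FPKM in CTRL and 26.8 in IR12. Its level in CTRL was 4.70 times that in IR12, the log2 ratio of -2.19 was the lowest of the 10 genes, and 1.68% of all tested genes were lower still. It lay past 2-fold under each scaling tried, with log2 ratios from -2.29 to -1.55. *Rdh10*, a dehydrogenase that oxidises retinol and also serves retinoic acid synthesis (ENSRNOG00000006681, chr5:2603505-2632030 on rn6), had 19.8 in CTRL and 78.5 in IR12. This is 3.97 times the level in CTRL and a log2 ratio of 1.94, the highest of the 10, with 2.03% of all tested genes higher. The table lists another gene, known only by a clone name, at the same locus, at 0 in both libraries. *Rgr*, an opsin that isomerises all-trans retinal in light (ENSRNOG00000012396, chr16:14286323-14300951 on rn6), had 13.7 in CTRL and 21.6 in IR12. Its log2 ratio of 0.62 is under 2-fold as deposited and becomes 1.22 on the TPM scale. Within a library, where scaling has no part, *Rdh10* stood at 0.157 times the FPKM of *Rlbp1* in CTRL and at 2.93 times in IR12, and *Rgr* at 0.109 and 0.805 times.

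Müller glia markers were lower in IR12 for 13 of 15 genes, 10 of them by at least 2-fold, and 1 was at least 2-fold higher. *Kcnj10*, a potassium channel among the 10, passed the filter only through CTRL. On the TPM scale 12 of the 15 were lower, 7 of them by at least 2-fold. The median log2 ratio of the list was -1.29 as deposited and -0.66 on the TPM scale. The summed FPKM was 2407 in CTRL and 1225 in IR12. *Glul*, the glutamine synthetase and most abundant marker, had 754 and 126, and *Aqp4*, the water channel, had 48.0 and 4.16. None of the markers was at 0. The genes that went the other way were *Cd44*, a hyaluronan receptor, with 40.8 in CTRL and 299 in IR12, and *Vim*, the intermediate filament vimentin, with 121 and 221. Relative to this list, *Rlbp1* made up 5.23% of its summed FPKM in CTRL and 2.19% in IR12, and without *Cd44* and *Vim* it made up 5.61% and 3.80%. Relative to *Glul* alone, *Rlbp1* went the other way, with 0.167 times the FPKM of *Glul* in CTRL and 0.213 times in IR12. *Rdh10* was at 0.821% of the list in CTRL and 6.41% in IR12, and *Rgr* at 0.568% and 1.76%. Without *Cd44* and *Vim*, *Rdh10* was at 0.881% and 11.1%, and *Rgr* at 0.608% and 3.06%. The part of Müller glia number or state in the values of the carrier and these enzymes was not tested.

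In photoreceptors, *Rdh8* and *Rdh12* reduce all-trans retinal, in the outer and inner segments respectively. *Rdh8* (ENSRNOG00000025767, chr8:21835103-21842374 on rn6) had 22.1 FPKM in CTRL and 50.4 in IR12. IR12 was the higher library by 2.28 times, a log2 ratio of 1.16, and 5.24% of all tested genes had a higher ratio. *Rdh12* (ENSRNOG00000056553, chr6:102392828-102405750 on rn6) had 45.4 in CTRL and 57.1 in IR12. Its log2 ratio of 0.32 stays under 2-fold with each scaling tried. *Rdh12* is a neighbour and paralog of *Rdh11*, which had 285 in CTRL and 207 in IR12, and how reads alike in both were shared out is not given in the sources used here. The FPKM of *Rdh12* was 0.159 times that of *Rdh11* in CTRL and 0.276 times in IR12.

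*Abca4*, the transporter that clears retinal bound to lipid from the disc membranes (ENSRNOG00000012892, chr2:225645568-225783287 on rn6), had 334 FPKM in CTRL and 328 in IR12. With a log2 ratio of -0.03 its FPKM in CTRL was 1.02 times that in IR12, and it was higher in IR12 on the TPM scale (0.62) and when both libraries were scaled to the rod markers (0.11), a scaling chosen after seeing the data. *Abca4* made up 43.7% of the summed FPKM of the 10 genes in CTRL and 47.3% in IR12. *Rbp3* encodes IRBP, which photoreceptors secrete into the matrix that separates them from the pigment epithelium, where it carries retinoids between the cells (ENSRNOG00000051911, chr16:10277775-10286243 on rn6). It stood at 190 FPKM in CTRL against 124 in IR12, and its share of the 10 genes was 24.8% and 17.8%. The log2 ratio of *Rbp3* was -0.61 as deposited and 0.03 on the TPM scale, which is 0.56 below the median of all genes on that scale.

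Rod markers check the tissue label, and their levels are set beside those of the photoreceptor genes. Of 19 markers 18 were found, without *Prph2*, and none was at 0. Their summed FPKM was 41320 in CTRL and 37610 in IR12, with *Gngt1*, a subunit of rod transducin, as the most abundant at 12096 and 8644. As deposited 11 rod markers were lower and 7 higher in IR12, with 1 past 2-fold and a median log2 ratio of -0.13. On the TPM scale 16 of the 18 were higher, beside 84.3% of all tested genes, against 51.8% as deposited. Cone markers were lower in IR12 for 10 of 11 genes as deposited and for 5 on the TPM scale, and their summed FPKM was 829 in CTRL and 664 in IR12, with *Guca1a* as the most abundant (225 and 165). As deposited *Opn1sw* was at least 2-fold lower, and *Gnb3*, the cone marker that went the other way, at least 2-fold higher (71.9 and 147, log2 ratio 1.02). Relative to the rod list, *Rdh8* was at 0.0534% of its summed FPKM in CTRL and 0.134% in IR12, *Rdh12* at 0.110% and 0.152%, *Abca4* at 0.809% and 0.873%, and *Rbp3* at 0.459% and 0.329%. Without *Gngt1* the share of *Abca4* was 1.14% and 1.13%. The log2 ratios of the rod markers ran from -1.21 to 0.92, a range that holds *Rdh12*, *Abca4* and *Rbp3* but not *Rdh8*.

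The median log2 ratio was 0.14 over the 6 pigment epithelium and Müller genes and 0.15 over the 4 photoreceptor genes. Over all tested genes it was 0.02, and on the TPM scale these medians were 0.49, 0.79 and 0.59. As deposited the groups differed in their spread, from -2.19 to 1.94 in the first and from -0.61 to 1.16 in the second. The median of the first group rests on its members. It was -0.58 without *Rdh10* and *Rgr*, but *Rlbp1* is also used by both cell types, and without all 3 of these genes it was -0.12. Without *Rdh5* alone it was -0.12 as well. The last 2 alternatives were chosen after seeing the data. Without *Rbp3* the median of the photoreceptor genes was 0.32. The summed FPKM of the pigment epithelium and Müller genes was 173 in CTRL and 135 in IR12, and that of the photoreceptor genes was 591 and 560, so photoreceptor genes made up 77.3% of the summed FPKM in CTRL and 80.6% in IR12.

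**Figure D2:**
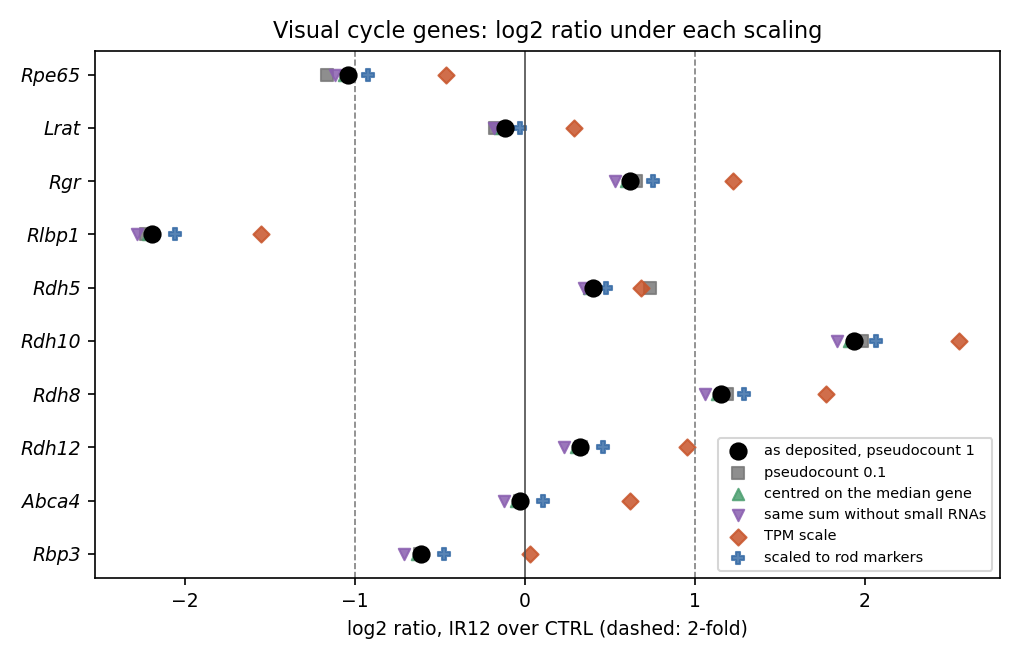
Log2 ratio of IR12 over CTRL of each visual cycle gene as deposited (black circles) and under the other pseudocount and scalings, with 2-fold dashed. *Rlbp1* lies below the lower line and *Rdh10* and *Rdh8* above the upper line under each of them, whereas *Lrat* (-0.12 as deposited, 0.29 on the TPM scale), *Rbp3* (-0.61 and 0.03) and *Abca4* (-0.03 and 0.62) change side of 0.

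Split by reaction, a grouping chosen after the values were seen, the retinol dehydrogenases *Rdh8*, *Rdh10* and *Rdh12* were each higher in IR12 under all scalings tried, with a summed FPKM of 87.2 in CTRL and 186 in IR12. *Rdh5* is left out here, since it passed the filter only through IR12. Of all tested genes 51.8% were higher in IR12 as deposited and 84.3% on the TPM scale. Of the 6 genes that are not dehydrogenases, which are carriers, a transporter, an opsin, an isomerase and an acyltransferase, 1 (*Rgr*) was higher in IR12 as deposited, and *Lrat*, *Abca4* and *Rbp3* joined it on the TPM scale. Of 7 Rdh and Dhrs genes outside the 10, 6 were tested. As deposited 2 of these were higher in IR12 and 4 lower, while on the TPM scale 5 were higher and 1 was lower, and their summed FPKM was 376 in CTRL and 285 in IR12. The largest part of that sum is *Rdh11*, a dehydrogenase of photoreceptors and pigment epithelium that accepts both forms of retinol, whose log2 ratio was -0.46 as deposited and 0.18 on the TPM scale.

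The wider set of retinoid enzymes and carriers held 42 genes, of which 38 were found, 24 were tested and 14 were under an FPKM of 1 in both libraries. Among the 24, 1 passed the filter only through CTRL. None of the 24 reached 2-fold higher in IR12, beside 6.56% of all tested genes, while 3 were lower by at least 2-fold, beside 6.12%. Their median log2 ratio was -0.15. On the TPM scale 5 were at least 2-fold higher and none was at least 2-fold lower, beside 2817 and 436 of the 13599 tested genes. The median on that scale was 0.49. The 3 lower genes were *Aldh1a1*, *Lpl* and *Dhrs3*. *Aldh1a1*, which oxidises retinal to retinoic acid, had 56.5 FPKM in CTRL and 18.3 in IR12, and the lowest log2 ratio of the set at -1.57. *Lpl*, the lipoprotein lipase, had 14.3 and 5.13. *Dhrs3*, a reductase that turns retinal back into retinol, had 9.99 and 3.54, opposite in direction to *Rdh10*, which catalyses the reverse reaction. *Rdh11* was the most abundant gene of the set. Named after their values were seen, *Scarb1*, a receptor for lipoproteins and carotenoids, had 90.3 and 163, and *Degs1*, a desaturase of ceramide synthesis that has been proposed as an isomerase in Müller glia, had 33.5 and 60.7. Their log2 ratios were 0.85 and 0.84. *Awat2*, *Crabp2*, *Rbp7* and *Sdr16c6* were listed at 0 in both libraries, and *Rdh16*, *Rdh7*, *Rdh2* and *Adh1* were not found.

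**Figure D3:**
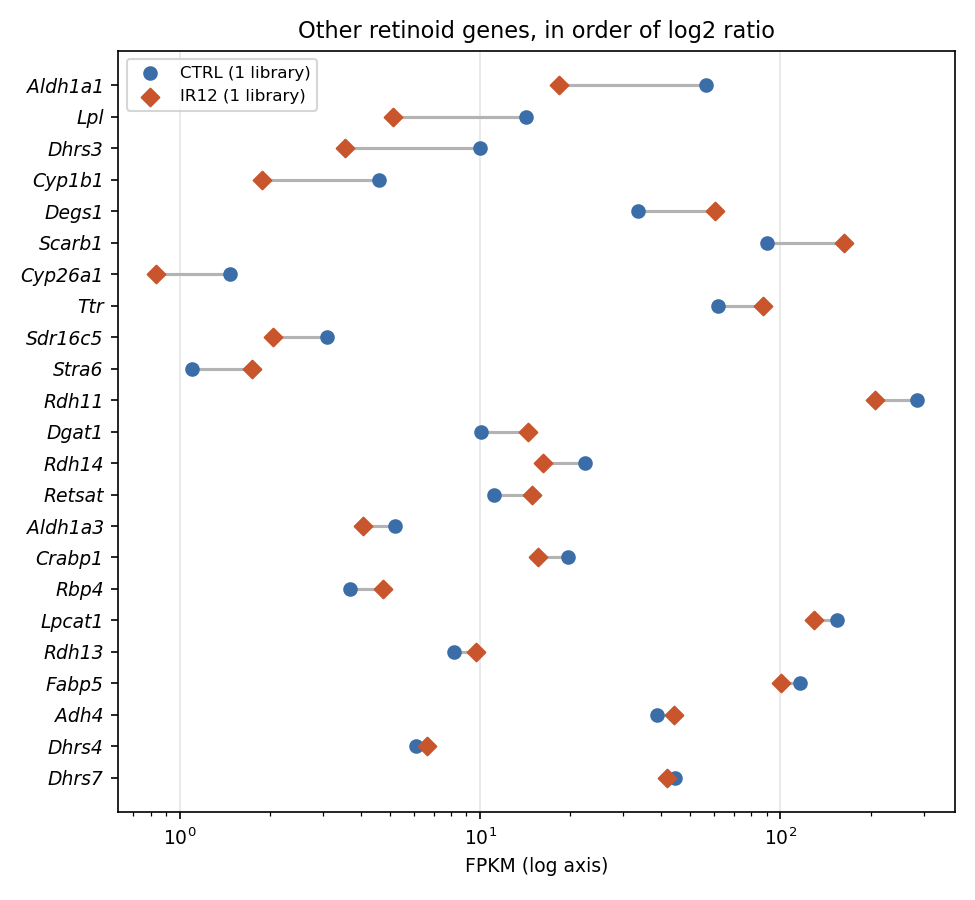
FPKM (log axis) in CTRL (circles) and IR12 (diamonds) of 23 of the 24 tested retinoid enzymes and carriers outside the 10 visual cycle genes. The genes are not drawn in order of their log2 ratio, although the title says so. *Dhrs3*, *Lpl* and *Aldh1a1* have the lowest log2 ratios, with *Aldh1a1* at 56.5 in CTRL and 18.3 in IR12. *Scarb1* has the highest, with 90.3 and 163.

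Receptors and response genes of retinoic acid made a set of 10, of which 8 were tested. *Tgm2*, a transglutaminase that retinoic acid induces in many cells, was at least 2-fold higher, with 2.97 FPKM in CTRL and 12.8 in IR12. *Rarres2*, the chemokine chemerin, was at least 2-fold lower as deposited, with 11.6 and 4.71, and had a log2 ratio of -0.57 on the TPM scale. The 6 others, the receptors, were under 2-fold, and *Rxrb*, a partner of the retinoic acid receptors, was the most abundant gene with 28.0 and 34.9.

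Among 7 opsins, the proteins that use the retinal of the cycle, 6 were tested and 2 were at least 2-fold lower in IR12 as deposited. Of the 6, 1 passed the filter only through CTRL. *Rrh*, an opsin of the pigment epithelium that binds all-trans retinal, had 59.1 FPKM in CTRL and 8.84 in IR12. Its log2 ratio was -2.61 and stayed past 2-fold on the TPM scale (-1.99). The FPKM of *Rrh* was 5.33 times that of *Rpe65* in CTRL and 1.81 times in IR12. *Opn1sw*, the opsin of short-wavelength cones, had 6.68 and 2.66, and its log2 ratio was -1.07 as deposited and -0.54 on the TPM scale. *Rrh* is also on the pigment epithelium list, and *Opn1sw* on the cone list.

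A list of 12 regulators of these genes gave 11 tested genes, of which 9 were lower and 2 higher in IR12 as deposited. On the TPM scale 8 of the 11 were higher, beside 84.3% of all tested genes, against 51.8% as deposited. *Sox9*, which with OTX2 and LHX2 drives genes of the cycle in pigment epithelium and Müller glia and is also on the Müller list, was the gene at least 2-fold lower, with 3.99 FPKM in CTRL and 1.44 in IR12. Its log2 ratio was -1.03 as deposited and -0.56 on the TPM scale. *Lhx2* had 10.3 and 5.79. *Pax6*, an eye field and amacrine cell factor and the most abundant of the set, had 165 and 105. *Crx* had 96.8 and 95.5, log2 ratios of -0.02 as deposited and 0.62 on the TPM scale. *Otx2* was listed at 0 in both libraries, as was *Hprt1*, an enzyme of purine salvage that all cells use, so a listed 0 is not a sign that a gene was silent. *Lhx2*, *Crx* and *Hprt1* were named after their values were seen.

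**Figure D4:**
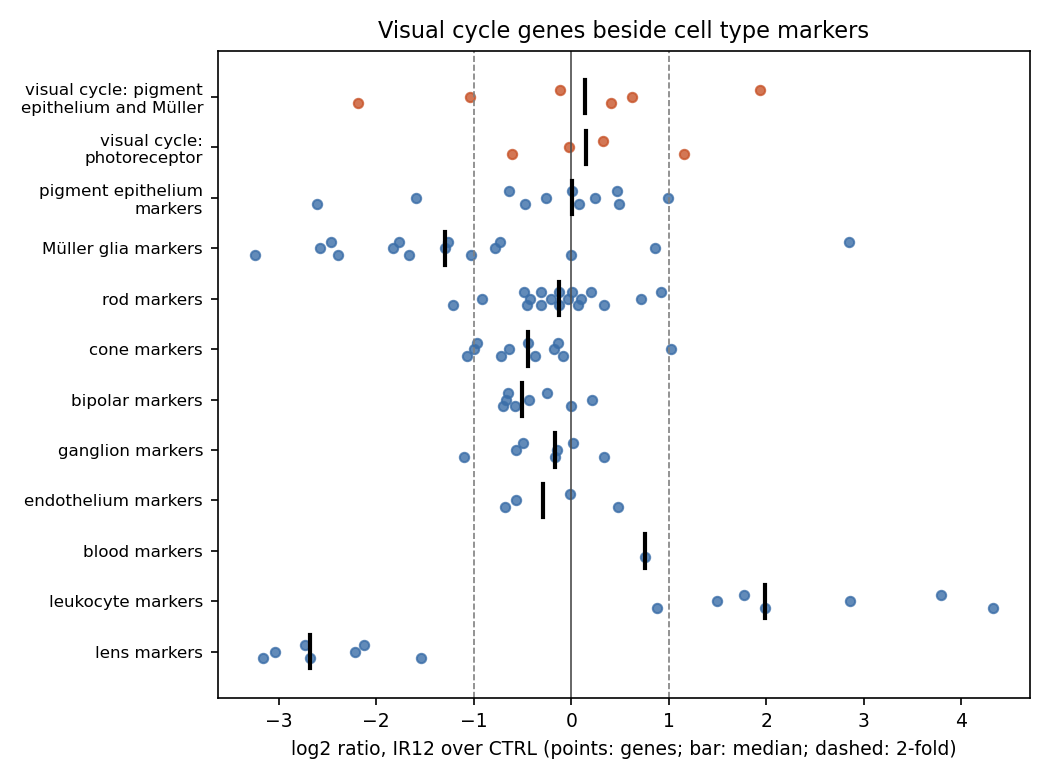
Log2 ratio of IR12 over CTRL as deposited for the visual cycle genes and for each cell type marker with FPKM of at least 1 in at least 1 library (points), with the median of each list as a bar and 2-fold dashed. The medians of the visual cycle groups (0.14 and 0.15) lie near 0, that of the Müller glia markers is -1.29, that of the lens markers -2.68 and that of the leukocyte markers, of which 6 of 7 passed the filter only through IR12, is 1.99. On the TPM scale the visual cycle medians are 0.49 and 0.79, and those of Müller, lens and leukocyte markers are -0.66, -2.09 and 2.30.

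Other cell types also differed between the libraries. All 7 leukocyte markers were higher in IR12, 6 by at least 2-fold, with a summed FPKM of 11.6 in CTRL and 126 in IR12, *Lyz2* as the most abundant (9.73 and 76.9), and *S100a8* listed at 0 in CTRL. Of these 7 markers 6 were under an FPKM of 1 in CTRL and passed the filter only through IR12, so their direction and the median of the list are partly set by it. All 7 lens markers were at least 2-fold lower in IR12, with a summed FPKM of 2967 and 355 and *Cryba1* as the most abundant (1614 and 196). *Bfsp2*, a filament protein of the lens, passed the filter only through CTRL. Lens genes made up 0.658% of the summed FPKM of genes other than small non-coding RNAs in CTRL and 0.0736% in IR12. The marker lists of bipolar cells, ganglion cells and endothelium differed less. Bipolar markers summed to 624 and 478, led by *Trpm1* (189 and 159), with none of 8 past 2-fold and a median log2 ratio of -0.50 as deposited and 0.11 on the TPM scale. Ganglion cell markers summed to 331 and 269, led by *Nefl* (132 and 88.8), with 1 of 7 tested genes past 2-fold as deposited and none on the TPM scale. Endothelial markers summed to 115 and 73.5, with none of 4 past 2-fold. *Kdr* (108 and 66.8) holds most of both sums, so they say little of the other markers. As deposited 1 of the 4 was higher in IR12 and 3 were lower, and on the TPM scale 2 were higher and 2 lower. Of these 4 markers, *Cdh5* passed the filter only through IR12. Of 5 blood markers 2 were found, and *Hbb* had 20.4 and 35.1. The part of leukocytes, lens tissue or blood in the values of the visual cycle genes was not tested.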

How the data were processed

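The authors deposited gene expression as FPKM, 1 column per library, for 32662 rows with loci on rn6. The study's methods give single-end reads shortened to their first 100 bp, and the submitters' processing notes name STAR 2.5.2b and Cuffdiff 2.2.0; the annotation behind the FPKM and the treatment of reads that match several genes are not given in the sources used here, where an Ensembl annotation is named for another program of the study. FPKM was not rescaled, and 1 was added to each value before log2 ratios were taken. Starts of loci, 0-based in the table, are printed 1-based. Genes with FPKM of at least 1 in at least 1 library were tested against a 2-fold limit, a description with no statistical test, since each condition has 1 library. Alternatives were a pseudocount of 0.1, the TPM scale, centring on the median gene (of those at FPKM 1 or more in each library), the same sum without small non-coding RNAs (recognised by symbol), a 1.5-fold limit, a minimum FPKM of 5 or none, and groups without some members. Scaling to the summed rod markers was added after seeing the data.

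The 10 genes and all lists were chosen with earlier results of these data known. Of each list of retinoid genes, receptors, opsins and regulators, the text names every gene at least 2-fold apart, up to 10 by size, and, except for opsins, the most abundant gene. Single values of 2 genes of these lists are not reported here, and the list counts, sums and medians include them. Other genes of the marker lists and neighbouring genes were named after their values were seen. Marker lists covered pigment epithelium, Müller glia, rods, cones, bipolar cells, ganglion cells, leukocytes, blood, lens and endothelium. Promoters are from RefSeq (GRCr8). The script of the fold counts was checked on simulated data for coding errors, which says nothing of the calls themselves. Python 3.11.15, numpy 2.4.6, pandas 2.3.3 and matplotlib 3.10.9 were used.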

Additional observations from a re-analysis of the deposited data

How the results depend on the processing

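Of 50 log2 ratios of single visual cycle genes under alternatives, 43 kept their direction and their side of 2-fold. On the TPM scale *Rpe65* was under 2-fold (-0.46), *Rgr* passed it (1.22), and *Lrat*, *Abca4* and *Rbp3* changed sign, to 0.29, 0.62 and 0.03. That scale gave 2817 genes at least 2-fold higher and 436 lower in place of 892 and 832, left 1 visual cycle gene at least 2-fold lower in place of 2, and gave medians of 0.49 for the pigment epithelium and Müller genes, 0.79 for the photoreceptor genes and 0.49 for the other retinoid genes. By construction it raises every gene of IR12, by 0.65 in log2 units where the pseudocount has no weight. Scaled to the rod markers, chosen after seeing the data, *Rpe65* was under 2-fold (-0.93), which left 1 gene at least 2-fold lower, and *Abca4* was 0.11. A 1.5-fold limit, added for all genes after seeing the data, gave 2007 higher and 1861 lower. The median of the pigment epithelium and Müller genes was -0.58 without *Rdh10* and *Rgr*. *Rlbp1* is shared by the same cell types, and without all 3 of these genes the median was -0.12, as it was without *Rdh5*, both chosen after seeing the data. Few genes make up the group. With each marker left out in turn, also chosen after seeing the data, the shares of *Lrat* and *Abca4* in their marker lists changed direction, and those of the other visual cycle genes did not. A median was counted as moved past 0.25, and a count past 1.5 times. No paired analysis was possible because each condition has 1 library, and for the same reason no replicate could be left out. The read counts of the visual cycle genes are unknown, since transcript lengths are not in the sources used here, and *Rdh5* and *Lrat*, at FPKM of 2.01 or less, rest on the fewest reads for their length.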

Other observations

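The visual cycle genes have neighbours on rn6 whose values were looked at only after those of the 10 genes were known. *Rdh8* lies 3434 bp from *Col5a3*, a collagen chain, which had 25.9 FPKM in CTRL and 69.1 in IR12 (log2 ratio 1.38) beside 1.16 for *Rdh8*, and 47944 bp on its other side is *LOC500956*, with 8.45 and 12.2 (0.49). *Rdh10* lies 681 bp from *Rpl7*, a ribosomal protein gene, which had 90.8 and 138, a log2 ratio of 0.59 beside 1.94, and 201678 bp on its other side is *Stau2*, with 73.6 and 60.8 (-0.27). *Rgr* lies 5852 bp from *Lrit1*, a photoreceptor gene with 195 and 237, 18825 bp from *Lrit2*, with 29.4 and 35.1, and 27208 bp from *Cdhr1*, a photoreceptor cadherin with 604 and 803. On its other side the nearest tested gene, at 75873 bp, is *Ccser2*, with 34.3 and 31.6. The nearest tested neighbours of *Rlbp1* are *Abhd2*, with 21.1 and 25.9, and *Fanci*, with 1.32 and 1.16. The tested gene nearest to *Rpe65*, at 145838 bp, is *Wls*, which carries Wnt proteins to the cell surface, with 16.6 and 3.76 and a log2 ratio of -1.89. Reads that run from one gene into the next were not measured, and their part in any of these values was not tested.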
